A study of Mus musculus with 6 samples.

Results

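The interferon response of cultured mouse cardiac fibroblasts (CFs) was followed through 39 genes, listed by symbol as interferon-stimulated genes and interferon-inducible GTPases and matched to the rows of the expression table. All 39 were found among its 19446 genes, and all 39 passed the filter on low reads (at least 10 reads in at least 2 libraries) that left 15948 genes for testing. By role, 4 of them were transcriptional regulators, 4 were sensors of foreign nucleic acid, 21 were effectors and 10 were GTPases of the Gbp, Irg and Gvin families.

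RNA-seq had been performed on CFs grown out from explanted hearts of 5-week-old mice, with 3 wild type (WT) and 3 CharmeKO libraries, to ask what changes in heart fibroblasts when *Charme*, a long non-coding RNA of the heart, is lost. The WT and CharmeKO animals were C57BL/6 J, and the knockout had been made by inserting a polyadenylation signal into the *Charme* locus, so it was present in every cell of the animal and not in fibroblasts alone. The explant cultures had been started from atrial tissue of littermate animals and kept on fibronectin in medium rich in serum, and no interferon or other agent was named for these samples. The study's methods describe replicates as independent primary isolations, and the labels do not tie a library to an animal.

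Libraries held 38330019 to 46797446 reads in genes, and 0 reads in a library allow a level of up to 3 reads, or 2.61 to 3.30 normalised counts depending on the library (counting error only). Fibroblast markers summed to between 27680 and 56280 CPM (reads relative to the library total), and cardiomyocyte markers to between 5.40 and 24.5 CPM. The only row without an Ensembl identifier, CUFF405, which no source ties by name to the *Charme* entry added by the authors, had 5, 15 and 11 reads in WT and 0, 6 and 3 in CharmeKO. The list of 19 macrophage genes did not follow the genotype. It summed to 298, 165 and 77.5 CPM in WT 1 to 3 and to 579, 387 and 33.1 CPM in CharmeKO 1 to 3, and the pan-leukocyte gene *Ptprc* was at 0 in CharmeKO 3. The list of 9 smooth muscle and pericyte genes was lower in CharmeKO in each pair. It summed to 3253, 685 and 5743 CPM in WT 1 to 3 and to 3058, 211 and 711 CPM in CharmeKO 1 to 3, so that the groups overlapped, but each CharmeKO library lay below the WT library of its number. All 9 genes were lower on the point estimate, with a median log2 fold change of -1.60, and 0 passed the adjusted limma test. In bulk RNA, fewer cells of a type and less RNA per cell cannot be told apart.

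Type I interferons are secreted when a cell senses viral nucleic acid. Type I interferons signal through a receptor and JAK kinases to a complex that includes STAT2 and IRF9 and binds the interferon-stimulated response element (ISRE) in the promoters of its target genes. Many targets of interferon gamma carry another promoter element, the gamma-activated site (GAS), and both routes also operate at a low, tonic level in unstimulated cells. Of 10 genes for interferon ligands that were looked for, 0 were among the rows of the table, while 9 receptor and kinase genes were.

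Promoter windows of the members, which span the start site, carried the ISRE more often than promoter windows at large. RefSeq windows of 250 bases before to 50 after the start site (GRCm38.p6) were at hand for 27 of the 39 members. The core letters GAAANNGAAA, searched on both strands, stood in a window of 17 of these 27 genes, that is in 56.2% of 32 windows, against 3.44% of all 32851 promoter windows. The GAS letters TTCNNNGAA, searched in the same way, stood in 31.2% of the members' windows, against 8.30% of all windows. Of the 27 genes, 7 held both motifs and 7 held neither. In *Ifitm3*, *Ifih1* and *Eif2ak2* the ISRE matches lay after the start site. A match describes letters and does not show that a factor binds there. The stretches below lie just upstream of the start site of 9 members taken from the regulators, effectors and GTPases, with no sensor among them. They are written 5′ to 3′ on the strand of the gene, with capitals marking the matched ISRE and GAS letters, on either strand.
Isg15 (chr4:156200850-156200909, minus strand): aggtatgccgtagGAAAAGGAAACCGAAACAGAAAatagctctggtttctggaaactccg
Ifit1 (chr19:34640779-34640838, plus strand): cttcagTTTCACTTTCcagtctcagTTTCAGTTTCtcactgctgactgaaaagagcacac
Oas1a (chr5:120907526-120907564, minus strand): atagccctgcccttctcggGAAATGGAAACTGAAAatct
Bst2 (chr8:71537562-71537621, minus strand): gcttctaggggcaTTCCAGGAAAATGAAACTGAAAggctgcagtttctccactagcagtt
Gbp2 (chr3:142620579-142620638, plus strand): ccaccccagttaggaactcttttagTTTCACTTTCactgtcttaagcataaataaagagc
Irgm1 (chr11:48871421-48871469, minus strand): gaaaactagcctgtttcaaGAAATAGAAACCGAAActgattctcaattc
Igtp (chr11:58199497-58199555, plus strand): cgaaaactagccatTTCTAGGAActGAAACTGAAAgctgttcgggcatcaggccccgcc
Irgm2 (chr11:58214888-58214947, plus strand): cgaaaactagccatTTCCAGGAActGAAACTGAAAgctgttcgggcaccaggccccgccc
Irf1 (chr11:53769899-53769958, plus strand): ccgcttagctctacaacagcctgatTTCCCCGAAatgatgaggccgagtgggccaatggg

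*Isg15* carried 3 overlapping ISRE matches in a row, and 8 of the 27 genes held 2 or more (*Bst2*, *Gbp3*, *Ifit1*, *Ifit3*, *Ifitm3*, *Irgm1*, *Isg15* and *Oas1a*). In *Bst2* a GAS match overlapped an ISRE match. The neighbouring GTPase genes *Igtp* and *Irgm2* had near copies of each other, with 57 of 59 positions identical and a GAS match just ahead of the ISRE in each. *Irf1* held a GAS match and no ISRE, as did *Ifi35* and *Ifit2*.

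In the comparison of CharmeKO with WT, none of the 39 members passed the test. With limma on log2(value + 1), a deposited value being a read count divided by a size factor for its library, 0 members and 0 of 15948 genes (0.0%) were called at an adjusted p under 0.05. At an unadjusted p under 0.05, 3 members stood out (*Gvin2*, *Gvin-ps4* and *Oas2*, all with lower values in CharmeKO), or 7.69% of the members against 0.897% of all genes tested. The members had been chosen with earlier results of these data known, so shares beside all genes are no test of the list. *Gvin2* and *Gvin-ps4* also lie in the same cluster on chromosome 7. On the point estimate, 32 of the 39 members were lower in CharmeKO, against 49.6% of all genes, and their median log2 fold change was -0.16, against 0.00 for all genes tested. This majority rested on 1 library: without WT 2 the members' median was 0.05 and 18 of 39 were lower. Scaling by plain library size left 29 lower, and TMM scaling left 31.

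The libraries that share a replicate number varied together over all genes, so the members were also set side by side within these pairs. The members themselves did not follow the numbers in this way: over the 39 members the deviations from the group means correlated at 0.78, 0.05 and -0.24 for numbers 1 to 3, and at 0.64 for WT 2 with CharmeKO 3, which have different numbers. In pair 1 the members were split about evenly: 20 of 39 were lower in CharmeKO 1 than in WT 1, against 46.7% of all genes, with a median difference of -0.03 on the log2 scale and a median size of 0.22, whatever the sign, against 0.17 for all genes. In pair 2 nearly the whole list was lower. There 37 of 39 members were lower in CharmeKO 2 than in WT 2, against 48.3% of all genes, with a median difference of -0.95 and a median size of 0.95, against 0.28 for all genes. The 2 exceptions were *Irf1* and *Ifitm3*. In pair 3 the direction was the opposite for most, since 11 of 39 were lower in CharmeKO 3, against 50.4% of all genes, with a median difference of 0.36. The macrophage list, by comparison, had medians of 1.04, 0.67 and -1.64 in the 3 pairs. The smooth muscle and pericyte list had medians of -0.10, -2.28 and -2.95, and for 7 of the 9 the CharmeKO library was the lower one in each pair. The part of either list in the members' differences was not tested.

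**Figure D1:**
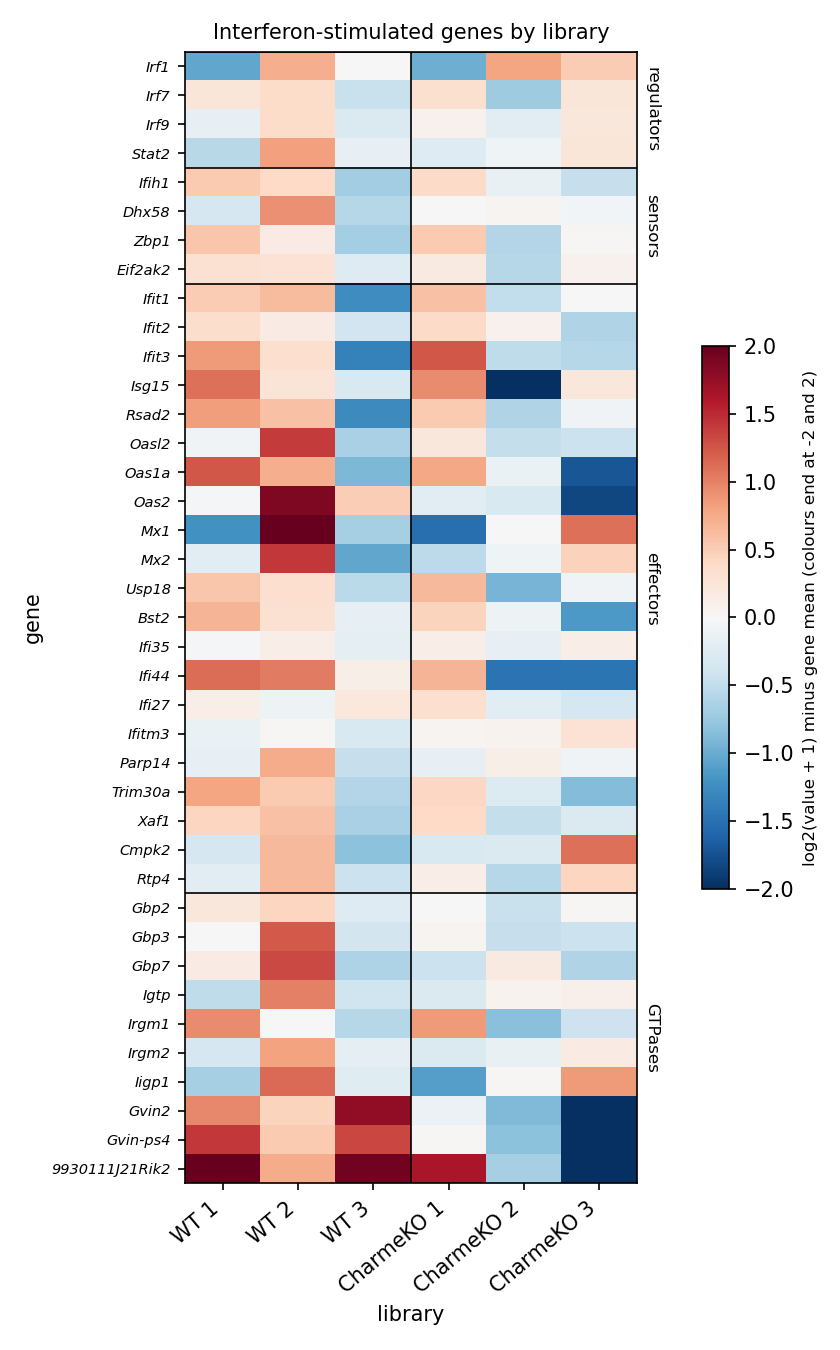
Each row is a member and each column a library. Colour gives log2(normalised count + 1) minus the mean of that gene over the 6 libraries, from blue (lower) to red (higher), with colours ending at -2 and 2. Many rows are red in WT 2 and blue in WT 3 or CharmeKO 2, while the 3 lowest rows (*Gvin2*, *Gvin-ps4* and *9930111J21Rik2*) are deepest blue in CharmeKO 3.

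Over the single libraries, WT 2 held the highest value of 18 of the 39 members (46.2%), against 17.7% of all genes, and WT 3 held the lowest value of 15 members (38.5%), against 11.8% of all genes. The members' mean centred log2 value was 0.27, 0.67 and -0.30 in WT 1 to 3 and 0.15, -0.37 and -0.42 in CharmeKO 1 to 3. The WT libraries thus spanned a wider range than the difference of the group means. Of a gene's variance over the 6 libraries, the genotype took a median of 5.35% in the members and 5.91% in all genes tested, the replicate number 53.2% and 73.8%, and the rest, which neither explains, 38.5% and 13.5%. The median member varied 3.23-fold from its lowest to its highest library. The steadiest was *Ifi35*, at 1.25-fold.

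With the replicate number as a block in limma, 0 members and again 0.0% of all genes passed the adjusted test. At an unadjusted p under 0.05 the block gave 7 members, against 5.37% of all genes, and all 7 were lower in CharmeKO (17.9% of the members, against 3.23% of all genes lower at that p). They were *Oas1a*, *Oas2*, *Ifi44*, *Bst2*, *Trim30a*, *Gvin2* and *Gvin-ps4*. Since the members were chosen with earlier results known, these shares are no test of the list either. DESeq2 with the same block called 64 genes (0.401%), none of them a member. The 7, together with *9930111J21Rik2*, were the 8 members lower in all 3 pairs (20.5%, against 14.0% of all genes). The 2 members higher in all 3 pairs were *Ifitm3* and *Irf1* (5.13%, against 16.4% of all genes). Groups did not overlap for 3 members lower in CharmeKO, again *Gvin2*, *Gvin-ps4* and *Oas2* (1.98% of all genes), and for 1 member higher in CharmeKO, *Ifitm3* (2.14% of all genes).

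**Figure D2:**
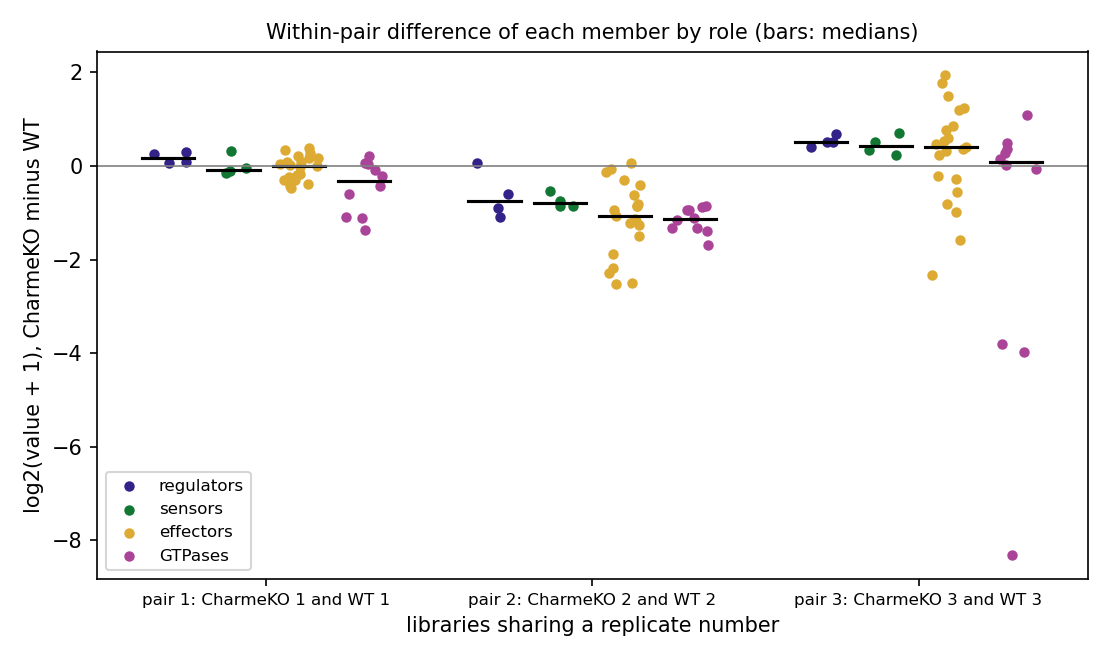
Each point is a member, placed by the difference of CharmeKO from WT in log2(normalised count + 1) within libraries of the same replicate number. Colours give the role, and black bars the median of each role. Most points lie near 0 in pair 1, almost all below 0 in pair 2, and mostly above 0 in pair 3, where 3 GTPase genes lie below -3. These 3 (*Gvin2*, *Gvin-ps4* and *9930111J21Rik2*) already lie apart in pair 1, at -1.08, -1.38 and -1.11.

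Among the 4 regulators, *Stat2* and *Irf9* encode parts of the complex that binds the ISRE, *Irf7* drives the amplification of type I interferon, and *Irf1* is an early target of interferon gamma. *Stat2* was at 1301, 3377 and 1706 normalised counts in WT 1 to 3 and at 1602, 1812 and 2278 in CharmeKO 1 to 3. *Irf9* was at 1379, 1994 and 1271 in WT and at 1640.2, 1320.3 and 1806 in CharmeKO. For both genes WT 2 was the highest library and the groups overlapped. *Irf7* was at 831, 915 and 516 in WT and at 878, 432 and 831 in CharmeKO, which put it at log2 -1.08 in pair 2 and 0.68 in pair 3. *Irf1* followed the replicate number instead: it was at 271, 924 and 549 in WT and at 282, 959.5 and 785 in CharmeKO, lowest in both libraries numbered 1. In the limma F test of the replicate number, *Irf1* had an adjusted p of 0.038 and was 1 of 4 members called (10.3%, with *Ifit2*, *Oas1a* and *Trim30a*), against 8.65% of all genes. Log2 fold changes of the 4 regulators lay between -0.11 (SE 0.36, *Irf7*) and 0.21 (SE 0.61, *Irf1*). *Irf9* shares exon sequence on its strand with *Rnf31*, so reads there could not be assigned to either gene.

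The 4 sensors were *Ifih1* (MDA5) and *Dhx58* (LGP2), which bind double-stranded RNA, *Zbp1*, which binds Z-form nucleic acid, and *Eif2ak2* (PKR), a kinase that halts translation on double-stranded RNA. *Eif2ak2* was at 3523, 3484 and 2387 in WT and at 3251, 1923 and 3027 in CharmeKO. *Ifih1* was at 1314, 1196 and 559 in WT and at 1191, 821 and 659 in CharmeKO. Both were lowest in a library numbered 2 or 3 and overlapped between the groups. *Zbp1* was at 942, 717 and 397 in WT and at 915, 427 and 651 in CharmeKO. *Dhx58* was at 277, 656 and 236 in WT and at 346, 363 and 337 in CharmeKO, so that its CharmeKO values lay inside the range of WT. The log2 fold changes lay between -0.21 (SE 0.27, *Eif2ak2*) and -0.01 (SE 0.41, *Dhx58*), and those of *Dhx58* and *Zbp1* turned positive under plain library size.

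Effectors carry out the antiviral state. On the point estimate 16 of 21 were lower, against 49.6% of all genes, with a median log2 fold change of -0.16. Per kilobase of exon, the most abundant was *Ifitm3*, which blocks the fusion of viruses in endosomes, at a mean of 13498 normalised counts. *Bst2* (tetherin), which holds budding virions at the cell surface, followed at 4674, then *Ifi27* at 2466 and *Ifit3*, whose protein binds other IFIT proteins on foreign RNA, at 1628. *Rsad2* (viperin), which makes an antiviral nucleotide, was at 37.6 per kilobase, and *Mx1*, a gene of the dynamin-like GTPases, was near the bottom at 5.47.

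*Ifitm3* was at 8282, 9200.4 and 7353 in WT and at 9392, 9558 and 11125 in CharmeKO. Every CharmeKO library lay above every WT library, with a log2 fold change of 0.28 (SE 0.17) that did not pass the test. Under plain library size and under TMM scaling the groups of *Ifitm3* overlapped, and the other 3 members without overlap remained so. *Ifi27* was at 3898, 3317 and 4141 in WT and at 4502, 3046 and 2801 in CharmeKO. *Ifit3* was at 4257, 2998 and 933 in WT and at 5597, 1661 and 1598 in CharmeKO, a 6.00-fold range in which both libraries numbered 1 were highest.

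*Bst2* was at 6259, 4815 and 3480.3 in WT and at 5355, 3648 and 1763 in CharmeKO. Each CharmeKO library lay below its WT partner while the groups overlapped, and the log2 fold change was -0.54 (SE 0.43, unadjusted p = 0.26). With the block the SE was 0.17 and the unadjusted p was 0.031. *Oas1a*, one of the synthetases whose 2′-5′ oligoadenylates activate RNase L, had the same shape: it was at 399, 279 and 89.0 in WT and at 286, 153 and 50.4 in CharmeKO. Its differences within pairs were -0.48, -0.86 and -0.81, and its block p was 0.019 before adjustment and 0.80 after it. *Trim30a*, a TRIM-family gene, was at 1745, 1454 and 677 in WT and at 1343, 834 and 555 in CharmeKO. For these 3 genes the number 1 libraries were the highest of each genotype and the number 3 libraries the lowest.

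*Oas2*, another synthetase, lies near *Oas1a* on chromosome 5 (120730333 to 120749853, minus strand, GRCm38). *Oas2* was at 190.1, 710.0 and 274 in WT and at 165, 156 and 53.9 in CharmeKO. Its groups did not overlap, but its WT 1 and CharmeKO 1 values were close, and WT 2 stood well above all others. The log2 fold change of *Oas2* was -1.57 (SE 0.65), with an unadjusted p of 0.048 and an adjusted p of 1.00 in limma, and it was -1.02 without WT 2 and -1.05 without CharmeKO 3. *Ifi44* was at 269.8, 257 and 135 in WT and at 199, 44.2 and 44.4 in CharmeKO, which gave -1.51 on the log2 scale (SE 0.67, unadjusted p = 0.061).

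*Isg15* encodes a ubiquitin-like modifier, and *Usp18* the protease that removes it and restrains the type I receptor. *Isg15* was at 1656, 922 and 619 in WT and at 1479, 161 and 903 in CharmeKO. *Usp18* was at 624, 535 and 291 in WT and at 664, 221 and 402 in CharmeKO. For both, CharmeKO 2 was the lowest of the 6 libraries. *Ifit1* was at 2630.4, 2884 and 785 in WT and at 2782, 1310.5 and 1846 in CharmeKO, with differences of 0.08, -1.14 and 1.23 in the 3 pairs. *Rsad2* and *Cmpk2*, a nucleotide kinase gene next to it on chromosome 12, had differences of -1.18 and -0.95 in pair 2 and of 1.20 and 1.94 in pair 3. The opposite signs in pairs 2 and 3 left the fold changes over all libraries close to 0 for *Ifit1* (0.06, SE 0.55) and *Rsad2* (-0.09, SE 0.63).

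The remaining effectors overlapped between the groups, most of them with WT 2 as the highest library. *Oasl2*, an OAS-like gene, was at 760.3, 2094 and 504 in WT and at 926, 570.2 and 592 in CharmeKO. *Mx1* was at 4.92, 66.2 and 7.69 in WT and at 3.85, 12.8 and 28.7 in CharmeKO, which rests on 4 to 62 reads, with -2.29 in pair 2 and 1.77 in pair 3. *Mx2*, its neighbour and in the annotation a polymorphic pseudogene, was at 93.6, 295 and 52.7 in WT and at 76.0, 103 and 151 in CharmeKO. In these 3 genes WT 2 was the highest library. *Parp14*, an ADP-ribosyltransferase gene, was at 863, 1619.7 and 702 in WT and at 863, 1051 and 925 in CharmeKO. *Xaf1* was at 802, 893 and 378 in WT and at 785, 425 and 485 in CharmeKO. *Rtp4* was at 246, 447 and 212 in WT and at 312, 193 and 387 in CharmeKO. WT 2 was again highest for *Parp14*, *Xaf1* and *Rtp4*, and *Rtp4* had log2 differences of -1.21 in pair 2 and 0.87 in pair 3. *Parp14* and *Rtp4* share exon sequence on their strand with *Gm49730* and *Gm45338*, so reads there could not be assigned to either gene. *Cmpk2* was at 83.7, 168 and 59.3 in WT and at 85.6, 86.5 and 229.6 in CharmeKO, the one effector besides *Ifitm3* with CharmeKO 3 highest. *Ifit2*, of the IFIT family, was at 1928, 1699.8 and 1165 in WT and at 1976, 1619 and 1005 in CharmeKO, and *Ifi35* lay between 715 and 891 in all 6 libraries. *Ifit2* went with the replicate number (adjusted p = 0.048 in the limma F test), and *Ifi35* had no call in either test.

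**Figure D3:**
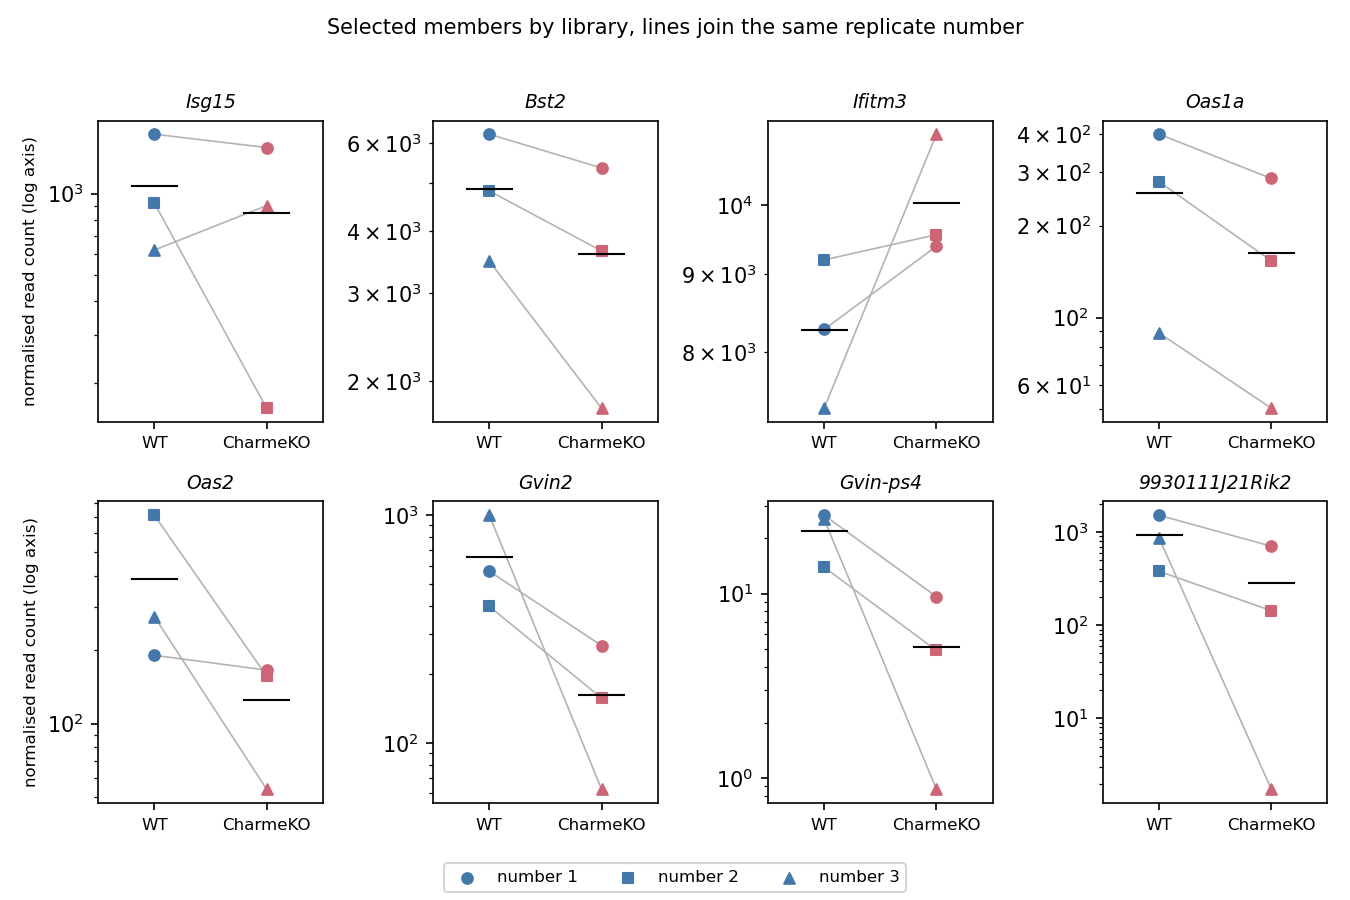
Normalised read counts of 8 members on log axes, with WT in blue and CharmeKO in red. Symbols give the replicate number, grey lines join libraries of the same number, and black bars are group means. The lines for *Bst2*, *Oas1a*, *Oas2*, *Gvin2*, *Gvin-ps4* and *9930111J21Rik2* all run down from WT to CharmeKO, while *Isg15* runs up in number 3 and *Ifitm3* runs up in all 3.

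Gbp and Irg proteins attack the vacuoles of intracellular pathogens, and Gvin genes encode very large inducible GTPases. All 10 GTPase genes were lower in CharmeKO on the point estimate, against 49.6% of all genes. They ran from -0.07 for *Igtp* to -3.60 for *9930111J21Rik2*, with a median of -0.41, and the genotype took a median of 20.0% of their variance. In pair 3, however, 6 of the 10 were higher in CharmeKO. Without *Gvin2*, *Gvin-ps4* and *9930111J21Rik2* the median of the other 7 was -0.26 and the genotype's share 5.37%, against the 5.91% of all genes. These 7 had medians of -0.09, -0.95 and 0.28 in pairs 1 to 3, and WT 2 was the highest library for 6 of them. Of the 588 genes (3.69%) with a log2 fold change of -1 or less, 5 were members, namely *Gvin2*, *Gvin-ps4*, *9930111J21Rik2*, *Oas2* and *Ifi44*. At a log2 fold change of 1 or more there were 0 members, against 1.35% of all genes. *Irgm1*, a regulator of the other Irg proteins and of autophagy, was at 7029, 3669.7 and 2439 in WT and at 6587, 2038 and 2715 in CharmeKO. *Irgm2* was at 879, 1923 and 963 in WT and at 906, 995 and 1240.3 in CharmeKO. *Gbp2*, a guanylate-binding protein, was at 807, 924 and 576 in WT and at 693, 504 and 701 in CharmeKO. These 3 genes overlapped between the groups and stood at log2 -0.85, -0.95 and -0.87 in pair 2. *Gbp3* was at 356, 835 and 277 in WT and at 372, 259 and 266 in CharmeKO. *Gbp7* was at 296, 662 and 172 in WT and at 196, 299 and 174 in CharmeKO. *Igtp* was at 215, 609.7 and 232 in WT and reached at most 328 in CharmeKO. WT 2 was the highest library for all 3, and their log2 fold changes were -0.56 (SE 0.44), -0.58 (SE 0.52) and -0.07 (SE 0.44). *Iigp1*, an Irg effector, was at 297, 1045 and 399.9 in WT and at 221, 482 and 858 in CharmeKO, with -0.43, -1.12 and 1.10 in the 3 pairs. *Gbp7* shares exon sequence on its strand with *Gm43802*. *Igtp* and *Irgm2* overlap in exons on the same strand, so that their counts are not independent of each other.

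*Gvin2* (ENSMUSG00000078606), a very large interferon-inducible GTPase gene of chromosome 7 (105895139 to 105953967, minus strand, GRCm38, where it is named Gm4070), was at 566, 397 and 998 in WT and at 267, 157 and 62.6 in CharmeKO. Every CharmeKO library lay below every WT library, and the lowest was CharmeKO 3. The log2 fold change of *Gvin2* was -2.13 (SE 0.60), with an unadjusted p of 0.010 and an adjusted p of 1.00 in limma. In limma with the block the unadjusted p was 0.025 and the adjusted p 0.80. In DESeq2 the adjusted p was 0.54 without the block and 0.088 with it. In edgeR with the block the adjusted p was 0.84. *Gvin-ps4* (ENSMUSG00000098934), an unprocessed pseudogene of the same family (106186404 to 106189999, minus strand, Gm18853 in GRCm38), was at 26.6, 13.9 and 25.3 in WT and at 9.61, 4.92 and 0.87 in CharmeKO, the last from 1 read. Between WT 3 and CharmeKO 3 this was a ratio of 29.1, with a 95% counting interval of 4.72 to 1200.0 (exact binomial). Its log2 fold change was -2.17 (SE 0.78). Without CharmeKO 3 the values were -1.56 for *Gvin2* and -1.48 for *Gvin-ps4*. The smooth muscle and pericyte list was likewise lower in all 3 pairs in its medians, with -0.10 in pair 1 against -1.08 for *Gvin2*. In WT both its summed CPM and *Gvin2* were lowest at WT 2 and highest at WT 3 (685 and 5743 CPM for the list). Its mean centred log2 value was also highest at WT 3 (2.34), and it was lowest at WT 1 (-0.08, against 0.30 in WT 2). Both had their largest drop in pair 3, with a median of -2.95 for the list and -3.97 for *Gvin2*. In CharmeKO the sum of the list was lowest at CharmeKO 2 (211 CPM, against 711 in CharmeKO 3), while *Gvin2* was lowest at CharmeKO 3. The part of this list in the *Gvin2* values was not tested. Reads that matched more than 1 Gvin copy were not counted, and *Gvin2* shares exon sequence on its strand with *Gm18852*, so the Gvin genes are uncertain as single genes.

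*9930111J21Rik2* (ENSMUSG00000069892), an Irg-type gene of chromosome 11 (49015874 to 49051242, minus strand, GRCm38), was at 1521, 380.1 and 866 in WT and at 706, 144 and 1.74 in CharmeKO. Each CharmeKO library lay below its WT partner, and CharmeKO 3 held 2 reads where WT 3 held 788. The ratio of WT 3 to CharmeKO 3 was 498, with a 95% counting interval of 137 to 4120 (exact binomial). The groups overlapped, since CharmeKO 1 lay above WT 2. The log2 fold change of *9930111J21Rik2* was -3.60 (SE 1.93, unadjusted p = 0.11), and it was -1.32 without CharmeKO 3.

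The genes around these members were then inspected, after their values had been seen. Within 500 kb of *Gvin2* and *Gvin-ps4*, 24 genes were tested, 8 of them Gvin entries. All 8 Gvin entries, the 2 members included, were lower in CharmeKO on the point estimate, 6 of them in all 3 pairs, with a median log2 fold change of -1.83. Of the other 16 genes 5 were lower, 1 of them in all 3 pairs, with a median of 0.12. *Gvin1* was at 715, 478 and 1158 in WT and at 336, 321 and 102 in CharmeKO, or -1.72 on the log2 scale (SE 0.56, unadjusted p = 0.019). *Gvin-ps1* was at 58.1, 57.7 and 52.7 in WT and at 19.2, 21.6 and 6.96 in CharmeKO, or -1.89 on the log2 scale (SE 0.54, unadjusted p = 0.011). *Gvin-ps4* lies within *Gvin1* on the same strand.

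**Figure D4:**
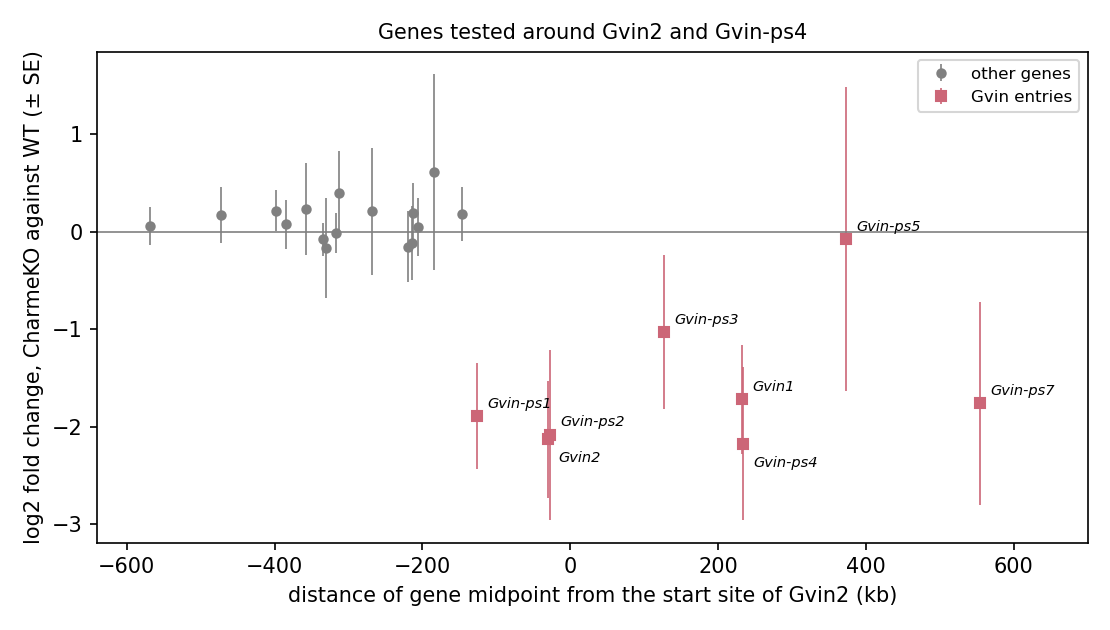
Log2 fold change of CharmeKO against WT (± SE, limma) for the 24 genes tested around *Gvin2* and *Gvin-ps4*, plotted by the distance of the gene's midpoint from the start site of *Gvin2*. Red squares are Gvin entries and grey circles other genes. Of the red squares, 7 lie at about -1 or below and *Gvin-ps5* lies near 0 with a wide error, while the grey circles lie between -0.17 and 0.61.

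Around *9930111J21Rik2*, 13 of the 19 genes tested within 500 kb were lower, with a median of -0.19. Its neighbour *9930111J21Rik1* was at 739, 185 and 461 in WT and at 396, 28.5 and 94.8 in CharmeKO. The log2 fold change of *9930111J21Rik1* was -1.94 (SE 0.99, unadjusted p = 0.094), and it was called by DESeq2 with the block. *Irgm1*, in the same stretch of chromosome, had 0.15 in pair 3, where *9930111J21Rik2* had -8.30. Members of a cluster thus did not always run together. Those of the *Ifit* cluster on chromosome 19 (*Ifit1*, *Ifit2* and *Ifit3*) averaged 0.17, -0.69 and 0.60 in the 3 pairs, and those of the *Gbp* cluster on chromosome 3 averaged -0.25, -1.23 and 0.08.

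Members with and without an ISRE in the window are set side by side here, with no test made. The log2 fold change of the 17 members with an ISRE had a median of -0.21, and their median in pair 2 was -0.87. The 10 with a window but no ISRE had medians of -0.09 and -1.01.

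Other genes of the pathway, taken from lists drawn up for background, were read from the same fit, and none passed the adjusted limma test. Of the 9 receptor and kinase genes 6 were higher and 3 lower, with a median of 0.02. *Ifnar1* and *Ifnar2*, the chains of the type I receptor, had log2 fold changes of 0.16 (SE 0.18) and 0.18 (SE 0.27). *Ifnlr1*, a chain of the lambda interferon receptor, was at 54.2, 152 and 59.3 in WT and at 48.1, 23.6 and 13.0 in CharmeKO, with an unadjusted p of 0.043. Of 18 further genes of nucleic acid sensing 14 were lower, with a median of -0.13, and the DNA sensor family gene *Ifi204* was at 1040.0, 1823 and 1063 in WT and at 917, 630.2 and 416 in CharmeKO (log2 -1.02, SE 0.36, unadjusted p = 0.028). Of 9 inhibitors of the pathway 7 were higher, with a median of 0.06, among them *Socs3*, which blocks JAK kinases, at 0.46 (SE 0.89). Of 67 further interferon-stimulated genes 45 were lower, with a median of -0.11 and 1 at an unadjusted p under 0.05, *Oasl1* (log2 -1.88, SE 0.76). Of 14 further interferon-inducible GTPases 12 were lower, with a median of -0.56. Over all genes tested 49.6% were lower. In pairs 1 to 3 the 67 genes had medians of 0.00, -0.45 and 0.06, and WT 2 was the highest library for 31 of them. The 14 GTPases had medians of -0.10, -1.14 and -0.21, with WT 2 highest for 9. They include *Gvin1* and *9930111J21Rik1*, already described as neighbours of members.

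The members were alike in their course over the libraries to differing degrees. The correlation of a member's log2 values with the mean of the other 38 over the 6 libraries had a median of 0.62 (Pearson's r) and was highest for *Gbp3* (0.92), *Xaf1* (0.91) and *Oasl2* (0.91). It was negative for *Ifitm3* (-0.18) and *Irf1* (-0.28). Of 123 listed interferon genes outside the members, 17 had an r above 0.8 with the members' mean, against 1.34% of 15909 genes outside the members. The 10 genes most like the members' mean were ENSMUSG00000106106 (0.99), *Tsc2* (0.98), *Oas3* (0.98), *Tuft1* (0.98), *C530043K16Rik* (0.97), *Wdtc1* (0.97), *Col17a1* (0.96), *Foxd1* (0.96), *Adar* (0.96) and *Oscp1* (0.96), of which *Oas3* and *Adar* are listed interferon genes. These are descriptions over 6 libraries, with no test made.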

How the data were processed

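Values of 6 libraries per gene had been deposited for cultured CFs. The authors aligned reads with STAR, counted reverse-strand reads per gene on an Ensembl annotation with *Charme* added, dropped low-count genes and scaled the rest with DESeq2. Per the labels the builds were GRCh38 and GRCm39. What was deposited is a signal, the counts divided by 1 size factor per library, and 100% of values gave whole reads (within 0.001) on division by the smallest positive value. STAR counts only reads placed once and in 1 gene.

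limma 3.58.1 (R 4.3.3) with a mean-variance trend was fitted to log2(value + 1) by genotype alone, two-sided, with Benjamini-Hochberg adjustment at 0.05, over the 15948 genes that reached 10 reads in 2 or more libraries. Fold changes on this scale understate those of low genes. edgeR 4.0.16 and DESeq2 1.42.0 on the recovered reads, the replicate block, other pseudocounts, filters and scalings, and leaving out each library were alternatives. Scripts were tested on simulated data. The replicate numbers of the titles were taken to pair libraries, since deviations from the group means correlated over all genes at 0.76, 0.51 and 0.22 for numbers 1 to 3. WT 2 and CharmeKO 3, of different numbers, also correlated at 0.22, so the pairing is least certain for number 3. Positions and exon lengths came from GENCODE annotation of GRCm38 and promoters from RefSeq, with no conversion between builds.

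The members and lists were chosen with earlier results of these data known. Values per library were given for the 4 most abundant members of each role and for members at an unadjusted p under 0.05. Up to 4 genes with the lowest p of an interferon list were named, some with values per library and some with a fold change only. The 10 genes most like the members' mean were given with their correlation only. Other members and listed genes with values were chosen after their values were seen. The result of 1 further list of interferon pathway genes is not reported here.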

Additional observations from a re-analysis of the deposited data

How the results depend on the processing

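No member was called for genotype under any alternative run (the other tests, the replicate block, pseudocounts, scalings, filters, and leaving out each library), and the count over all genes was 0 in each except DESeq2, with 8 genes, and DESeq2 with the replicate block, with 64 genes. limma called 143 genes at an unadjusted p under 0.05. Each replicate number holds 1 library per genotype, so limma with the block gives the unblocked fold changes by construction. The members' median log2 fold change was -0.16 in both. Over the alternatives it ran from -0.54 to 0.05 when 1 library was left out, and only leaving out WT 2 made it positive. The count of genes called for the replicate number was 1379 in limma, 655 in edgeR and between 0 and 5888 without 1 library, and the count of members was 4, 2 and between 0 and 14. In the members' single fold changes, 607 of 661 values kept their direction. Those of limma with the block are among them and could not differ. Of 54 that did not, 46 came from leaving out a library, and the cause was not tested. Under plain library size *Dhx58* was at 0.029, *Zbp1* at 0.0084 and *Rtp4* at 0.033, under TMM scaling *Rtp4* was at 0.0022, under edgeR and DESeq2 *Ifit1* was at -0.087 and -0.092, and with the replicate block in edgeR and DESeq2 *Rtp4* was at 0.016 and 0.0084.

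Without 1 library the log2 fold changes ranged from -0.26 to 0.75 (*Irf1*), -0.36 to 0.22 (*Irf7*), -0.074 to 0.25 (*Irf9*), -0.35 to 0.33 (*Stat2*), -0.54 to 0.079 (*Ifih1*), -0.29 to 0.45 (*Dhx58*), -0.38 to 0.26 (*Zbp1*), -0.39 to 0.025 (*Eif2ak2*), -0.54 to 0.39 (*Ifit1*), -0.29 to 0.19 (*Ifit2*), -0.54 to 0.56 (*Ifit3*), -1.36 to 0.24 (*Isg15*), -0.75 to 0.30 (*Rsad2*), -0.89 to 0.13 (*Oasl2*), -0.94 to 0.81 (*Mx1*), -0.65 to 0.58 (*Mx2*), -0.62 to 0.17 (*Usp18*), -0.011 to 0.16 (*Ifi35*), -0.33 to 0.28 (*Parp14*), -0.13 to 0.75 (*Cmpk2*), -0.22 to 0.32 (*Rtp4*), -0.34 to 0.41 (*Igtp*), -0.76 to 0.15 (*Irgm1*), -0.39 to 0.17 (*Irgm2*) and -0.61 to 0.38 (*Iigp1*). Depth limits *Gvin-ps4*, with 1 to 27 reads a library, and *Mx1*, with 4 to 62. Reads shared by near-identical Gvin copies were not counted, which touches *Gvin2* and *Gvin-ps4*.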
